A study of Gallus gallus with 6 samples.

Results

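The genes described here store oxygen, sense it or hydrate carbon dioxide in chicken skeletal muscle: myoglobin (MB), the hypoxia-inducible factors EPAS1 and HIF1A, the prolyl hydroxylases EGLN1 and EGLN3, and the carbonic anhydrases CA3 and CA4. Members were chosen by name, and 6 of the 7 listed symbols are rows of the deposited table of 18239 genes. CA3 is not a symbol of that table, but CA3A and CA3B both carry CA3 as a synonym in RefSeq (assembly GRCg7b), which gave 8 member genes. They were compared between soleus, a leg muscle, and pectoralis major, the breast muscle, of broilers (meat-type chickens) aged 180 days. Each muscle had 3 RNA-seq libraries, and no treatment or genotype separates them. Separate birds are not named for the libraries; the p-values below therefore reflect only how far these samples spread, and that spread may be technical.

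Myoglobin binds oxygen in the cytosol of oxidative fibres and the heart, holds a reserve and carries oxygen towards mitochondria. HIF1A and EPAS1 are alternative alpha subunits of the hypoxia-inducible factors (HIF). With oxygen at hand, the EGLN enzymes hydroxylate prolines of the alpha subunits, which the VHL ubiquitin ligase then recognises; without it, the alpha subunits persist and switch on genes with ARNT. This control acts on the protein, so transcript levels do not show HIF activity. Carbonic anhydrases interconvert carbon dioxide and bicarbonate, in muscle both inside the fibre and on membranes facing the blood.

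Library totals, recovered from the step size of FPKM values (fragments scaled to gene length and library total), ran from 38534335 to 39079981 fragments for soleus and from 36309597 to 37123092 for pectoralis major. The labelled muscles bore their markers. The summed level of 4 slow fibre genes was 7856 to 11001 FPKM in soleus and 0.560 to 2.82 FPKM in pectoralis major. That of 4 fast fibre genes was 17537 to 22138 FPKM in soleus and 40895 to 45306 FPKM in pectoralis major. The fast fibre genes differed unequally: MYH1E had a mean of 4.31 FPKM in soleus against 4823 FPKM. By limma, 3 of the 4 were lower in soleus (adjusted p below 0.05) and TNNC2 was not (adjusted p = 0.153). Mitochondrially encoded genes took 31.4% to 38.0% of all FPKM in soleus and 13.1% to 15.8% in pectoralis major. Over the 9616 tested genes the median log2 difference stood at 0.26 with the deposited scaling, at -0.04 with median-ratio scaling and at 0.44 once mitochondrially encoded genes were taken out of the totals, so the size of small differences depends on the scaling.

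Of the 8 member genes, 7 were higher in soleus and 1, EGLN3, was lower (limma, adjusted p below 0.05 over all tested genes). Of all tested genes, 57.3% were called, 40.0% higher in soleus and 17.4% lower. The muscles did not overlap for any of the 8, as was so for 64.9% of all tested genes. Differences of at least 2-fold on the log2(FPKM + 1) scale were called for MB, CA3A, CA3B, CA4, EPAS1 and EGLN1 as higher and EGLN3 as lower, against 9.44% and 5.5% of all tested genes. EPAS1 and EGLN1 lay just past that size and fell short of it under median-ratio scaling (0.65 and 0.67) and, at the lowest, with 1 library left out (0.89 and 0.99). CA3B reached the filter (FPKM of at least 1 in at least 3 libraries) through its soleus libraries alone, so its call carries no weight of its own. EGLN3 reached the filter through its pectoralis major libraries, since in soleus only library 2 (1.12 FPKM) had at least 1 FPKM. Its call has a like limit.

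**Figure D1:**
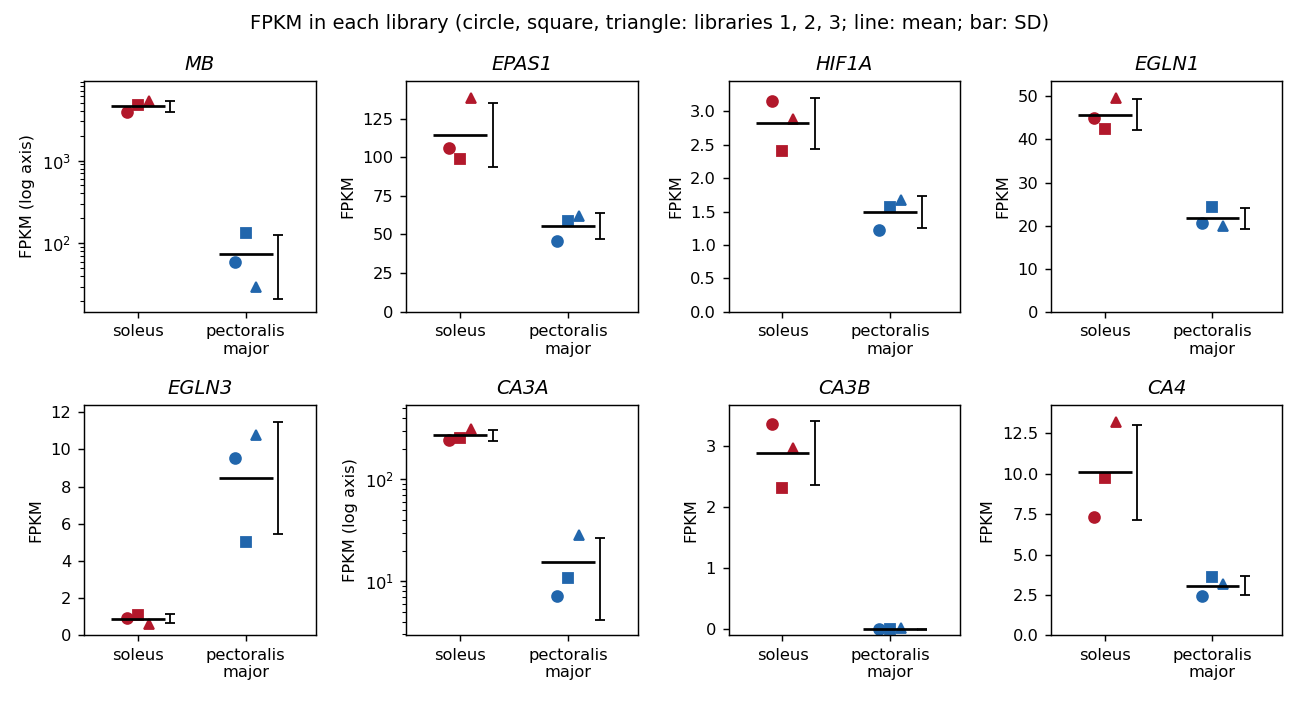
FPKM of the 8 member genes in each library, with the mean (line) and SD (bar) of 3 libraries per muscle; MB and CA3A are on a log axis. MB and CA3A stand far higher in soleus, with the pectoralis major libraries spread widely, while EGLN3 is the only one of these genes that is higher in pectoralis major, at 5.03 to 10.8 FPKM against 0.627 to 1.12.

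MB was among the most abundant transcripts of soleus. Soleus libraries 1, 2 and 3 held MB at 3857, 4639 and 5185 FPKM, and pectoralis major libraries 1, 2 and 3 at 60.4, 132 and 29.6 FPKM. All soleus libraries were high and close to each other, while pectoralis major library 2 was 4.48 times library 3. Among all 18239 genes, MB ranked 18th to 22nd by FPKM in soleus libraries and 430th to 1461st in pectoralis major libraries. It took 0.728 ± 0.106% of all fragments in soleus and 0.0118 ± 0.00842% in pectoralis major (SD, n = 3 each). The ratio of the means was 61.6, and the log2 difference was 6.17 ± 0.44 (SE, limma adjusted p = 1.80e-05), the 14th largest among genes higher in soleus. In these bulk samples, fewer cells of a type and less RNA per cell cannot be told apart. The slow fibre genes TNNI1 (0.449, 2.499 and 1.34 FPKM in pectoralis major libraries 1 to 3) and MYL3 (0.0835, 0.245 and 0.0204 FPKM) were, like MB, highest in pectoralis major library 2, and the library lowest in MB was lowest in MYL3 but not in TNNI1. In pectoralis major library 3, MYL3 lay below the 0.0269 FPKM that a single fragment gives a 1 kilobase gene. Its order among these libraries may therefore rest on very few fragments. MYL2, another slow fibre gene, has a listed value of 0 in each of the 3 pectoralis major libraries.

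Genes of heme supply were split. Myoglobin carries heme, whose synthesis starts with ALAS and ALAD and ends with FECH. Of 18 tested genes of heme synthesis and iron, 7 rose in soleus (38.9%) and 5 fell (27.8%), beside 40.0% and 17.4% of all tested genes. The median log2 difference was 0.17 beside 0.26 for all tested genes. Under median-ratio scaling the counts were 5 and 7, beside 2026 and 2837 of all 9616 tested genes. ALAS1, the entry enzyme, rose from 15.03 ± 1.92 to 59.7 ± 8.76 FPKM (log2 difference 1.92), and ALAD, the next enzyme, from 1.93 ± 0.638 to 6.96 ± 1.13 FPKM (1.46). The RefSeq entry of this ALAS1 gene also bears the synonym ALAS2, the erythroid form, so which form its values stand for is uncertain. The 5 that fell were UROS (-1.05), PPOX (-0.82) and CPOX (-0.77), enzymes of later steps, and the mitochondrial transporters ABCB10 (-0.72) and SLC25A39 (-0.59). FECH, which inserts the iron and was picked after its values were seen, did not pass, at 3.42 ± 0.877 FPKM in soleus and 3.13 ± 0.644 FPKM in pectoralis major. The heme breakdown gene HMOX1 (1.30) rose, as did TFRC, the transferrin receptor (1.18). BLVRA, which acts after HMOX1, was also called (1.76), but it reached the filter through its soleus libraries alone. FTH1, the ferritin heavy chain and most abundant gene of the list, reached 3381 ± 124 FPKM in soleus against 2318 ± 393 FPKM and rose as deposited (0.56), but not under median-ratio scaling (0.17, adjusted p = 0.364).

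Other globins did not follow myoglobin's size of difference. CYGB, cytoglobin, had 15.0, 13.9 and 17.6 FPKM in soleus and 7.86, 6.06 and 9.95 FPKM in pectoralis major, a log2 difference of 0.90 ± 0.18 (SE, limma adjusted p = 0.00331). It was the 1 of 4 tested globins that rose, beside 40.0% of all tested genes called higher and 17.4% called lower. With 4 genes, that count does not set globins apart from other genes. Of the erythrocyte markers, hemoglobins HBA1, HBAD and HBBA and the anion exchanger SLC4A1, 0 of 4 passed by limma, 0 had an unadjusted p below 0.05 and 0 passed with voom. Their summed level was 426, 942 and 1035 FPKM in soleus libraries 1, 2 and 3 and 404, 811 and 640 FPKM in pectoralis major libraries 1, 2 and 3, so the muscles overlapped and library 1 was lowest in both. The labels number the libraries 1 to 3 in each muscle, and with that number as a replicate block HBAD (adjusted p = 0.0281) and HBBA (0.0394) passed as higher in soleus. HBA1, the most abundant, stood at 214, 512 and 568 FPKM in the soleus libraries and at 227, 430 and 348 FPKM in the pectoralis major libraries. In pectoralis major HBA1 and MB were both highest in library 2, but HBA1 was lowest in library 1 and MB in library 3.

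Both HIF alpha subunits were higher in soleus, EPAS1 2.07-fold and HIF1A 1.89-fold by their means, and EPAS1 was the more abundant per length in every library. The EPAS1 values were 106, 98.9 and 138 FPKM for soleus and 45.7, 58.4 and 62.0 FPKM for pectoralis major (libraries 1, 2 and 3 of each). Every soleus library stood above every pectoralis major library, the nearest pair being 1.60-fold apart. The log2 difference was 1.03 ± 0.17 (SE, limma adjusted p = 0.00135). HIF1A had 3.16, 2.41 and 2.88 FPKM in soleus and 1.22, 1.57 and 1.68 FPKM in pectoralis major, again without overlap, with the nearest pair 1.44-fold apart. Its log2 difference was 0.62 ± 0.13 (SE, limma adjusted p = 0.00474), and 0.36 under median-ratio scaling (adjusted p = 0.0303), the smallest of the 8 member genes.

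The ratio of EPAS1 to HIF1A within a library does not depend on how libraries are scaled. It was 33.6, 40.99 and 47.9 in soleus and 37.5, 37.1 and 36.9 in pectoralis major. The soleus values lay on both sides of the pectoralis major values. The log2 difference of the ratio was 0.12 (two-sided exact permutation p = 0.6, where 3 against 3 cannot go below 0.1). No shift in this ratio was thus detectable with these libraries. With FPKM + 1 in place of FPKM, the log2 difference was 0.41 and the permutation p was 0.1. Adding 1 understates the change of HIF1A, which is low, and a ratio formed so does depend on scaling. The size of the ratio rests on the gene lengths used in counting. The steps of the values gave HIF1A a length of 16304 bases, longer than all but 2.15% of tested genes, and EPAS1 one of 6206 bases; in fragments, without division by length, EPAS1 was 15.5 ± 2.73 times HIF1A in soleus and 14.1 ± 0.122 times in pectoralis major (SD, n = 3).

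The prolyl hydroxylases moved in opposite directions. EGLN1, the main oxygen sensor of this family in mammals, had 45.0, 42.5 and 49.6 FPKM in soleus and 20.6, 24.4 and 19.97 FPKM in pectoralis major. It was the least variable of the 8 member genes within a muscle (SD of 7.88% and 10.9% of the mean), and its log2 difference was 1.05 ± 0.13 (SE, limma adjusted p = 0.000329). EGLN3, which in mammals is itself induced by HIF, had 0.956, 1.12 and 0.627 FPKM in soleus and 9.55, 5.03 and 10.8 FPKM in pectoralis major. These were 115 to 205 fragments per soleus library and 877 to 1881 per pectoralis major library. The mean was 9.40-fold higher in pectoralis major, and the log2 difference was -2.27 ± 0.24 (SE, limma adjusted p = 0.00016), the 74th largest among genes lower in soleus. With voom on whole fragments, which adds no FPKM of 1 to this low gene, it was -3.2. EGLN3 reached the filter through its pectoralis major libraries, where it was higher.

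Within a library, EGLN3 stood at 0.0201 ± 0.00689 of EGLN1 in soleus and at 0.403 ± 0.175 in pectoralis major (SD, n = 3). The log2 ratio was -5.56, -5.25 and -6.31 in soleus and -1.11, -2.27 and -0.89 in pectoralis major. By geometric means the ratio was 19.4-fold higher in pectoralis major. The two-sided exact permutation p was 0.1, the smallest that 3 against 3 allows, and 0.15 after Benjamini-Hochberg adjustment over the 3 ratios compared. With same-numbered libraries paired, the exact p was 0.25, the smallest that 3 pairs allow. EGLN1 was the more abundant of the pair per length in all 6 libraries.

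**Figure D2:**
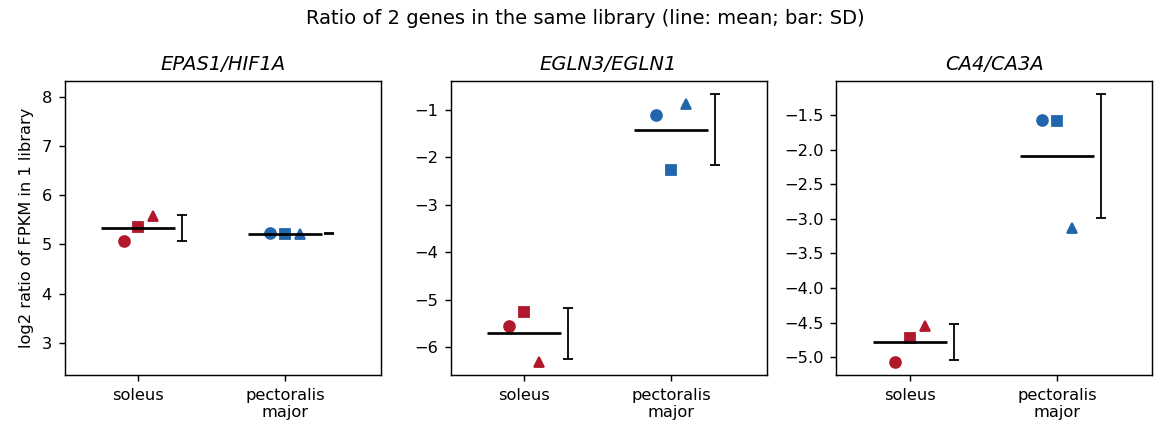
Log2 ratio of the FPKM of 2 genes in the same library, for 3 pairs, with the mean (line) and SD (bar) of 3 libraries per muscle. EPAS1/HIF1A overlaps between muscles, while EGLN3/EGLN1 and CA4/CA3A are higher in all 3 pectoralis major libraries than in any soleus library.

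Among partners of the factors, the largest difference was that of HIF1AN, the asparagine hydroxylase that blocks HIF alpha subunits from their coactivators. It had 25.3, 28.1 and 26.3 FPKM in soleus and 63.2, 76.03 and 71.0 FPKM in pectoralis major, without overlap (log2 difference -1.36 ± 0.12 SE, limma adjusted p = 6.6e-05). Of 9 tested partners it was the 1 that fell, and 5 rose: CITED2 (0.77), a competitor for the coactivators, TCEB1, elongin C (0.48), EP300, a coactivator (0.47), VHL (0.44) and ARNT (0.39). The shares of 55.6% higher and 11.1% lower stood beside 40.0% and 17.4% of all tested genes. The median of the list was 0.39, beside 0.26 for all tested genes. These small rises were not stable. Under median-ratio scaling 1, CITED2, rose and 3 fell, beside 2026 and 2837 of all 9616 tested genes. Without any 1 of the soleus libraries or pectoralis major library 1 the number that rose was 2 or 3. With the replicate block CUL2 fell as well (adjusted p = 0.0243). RBX1, the most abundant of the list and a subunit of the VHL ligase, stood at 94.2 ± 18.9 FPKM in soleus and 112.9 ± 8.25 FPKM in pectoralis major. It did not pass with the deposited scaling, but fell when soleus library 2 was left out (adjusted p = 0.0369) and under median-ratio scaling (0.0118).

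Genes known from mammals as HIF targets were not uniform. Outside glycolysis, 10 of 20 tested rose in soleus and 0 fell by limma or voom (1, P4HA2, was lower at an unadjusted p below 0.05). Of all tested genes, 40.0% were called higher and 17.4% lower. The list median was 0.50 beside 0.26 for all tested genes. Under median-ratio scaling 6 rose and 3 fell, beside 2026 and 2837 of all 9616 tested genes. VEGFA, the vascular growth factor, led with 22.3, 23.4 and 34.5 FPKM in soleus and 7.13, 7.39 and 7.72 FPKM in pectoralis major, a log2 difference of 1.70 ± 0.17 (SE, limma adjusted p = 0.000121), followed by HMOX1 and TFRC. DDIT4, an inhibitor of mTOR signalling and the most abundant of the list, did not pass, with 153.3 ± 54.3 FPKM for soleus and 195.7 ± 98.5 FPKM for pectoralis major. FLT1 and TEK, among the 10, are also on the list of endothelial markers. CXCR4 (adjusted p = 0.0047) and INSIG2 (0.0495) did not pass in the fit as deposited and passed as higher with the replicate block. CXCR4 reached the filter through its soleus libraries, since in pectoralis major only library 1 (1.55 FPKM) had at least 1 FPKM.

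Of the 14 tested HIF targets of glycolysis, 7 rose (50.0%) and 4 fell (28.6%), beside 40.0% and 17.4% of all tested genes. The 4 that fell were LDHA (-3.98), PGK2 (-3.56; its RefSeq synonym is PGK1), TPI1 (-3.10) and GAPDH (-2.20), all abundant glycolytic enzymes; GAPDH reached 13156 ± 2708 FPKM in soleus against 59547 ± 3613 FPKM. PDK1, which inhibits pyruvate dehydrogenase, was singled out after its values were seen. It rose with 23.3, 25.8 and 30.6 FPKM in soleus against 3.16, 4.73 and 3.04 FPKM in pectoralis major (log2 difference 2.58). Under median-ratio scaling 5 rose and 5 fell, beside 2026 and 2837 of all 9616 tested genes. As deposited, EGLN3 had the direction of the 4 that fell and not that of the 7 that rose. EPAS1, HIF1A and EGLN1 had the direction of VEGFA and of those 7, which include PDK1, ALDOC (1.40) and SLC2A1 (1.02). A shared direction does not by itself tie these genes together, and a link was not tested.

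**Figure D3:**
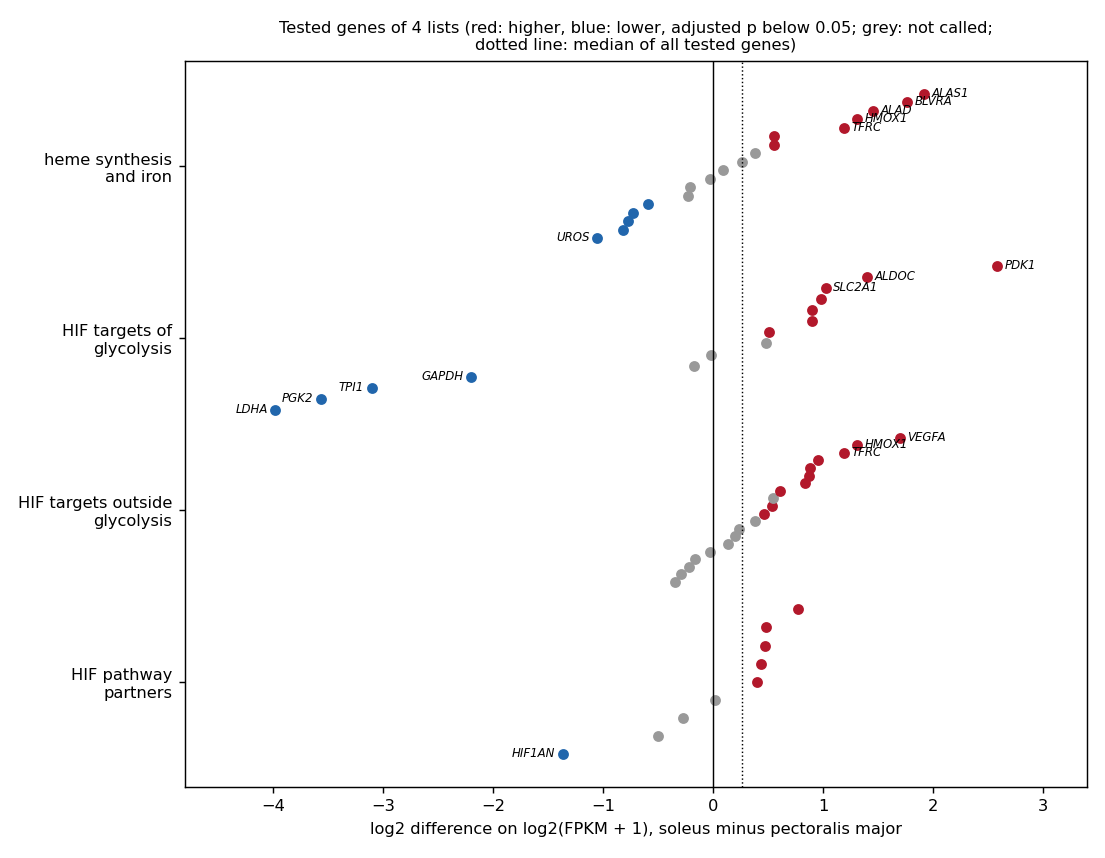
Log2 difference (soleus minus pectoralis major) of each tested gene in 4 lists; red and blue mark genes called higher and lower, grey those not called, and the dotted line the median of all tested genes, 0.26. The glycolytic targets LDHA, PGK2, TPI1 and GAPDH lie from -3.98 to -2.20, apart from the other listed HIF targets, and HIF1AN lies lowest among the partners, at -1.36.

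Among the tested carbonic anhydrase genes, the fitted log2 difference was largest for CA3A, followed by CA3B. CA3, a cytosolic form of low activity, is known from mammals as abundant in slow fibres. Soleus libraries 1, 2 and 3 held CA3A at 245.5, 255 and 308 FPKM, and pectoralis major libraries 1, 2 and 3 at 7.20, 10.8 and 28.1 FPKM. Pectoralis major library 3 was 3.91 times library 1, yet the lowest soleus library was still 8.73 times the highest pectoralis major library. The ratio of the means was 17.5, and the log2 difference was 4.25 ± 0.39 (SE, limma adjusted p = 7.07e-05). It was 4.77 without pectoralis major library 3. The order of pectoralis major libraries was not that of MB, which was lowest in library 3, where CA3A was highest.

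CA3B reached 3.35, 2.31 and 2.96 FPKM in the soleus libraries. Pectoralis major libraries 1 and 2 list it at 0, and library 3 at 0.0141 FPKM. In fragments this was 641 over the soleus libraries and 1 over the pectoralis major libraries, a ratio of 607 per fragment sequenced, with a 95% exact (Clopper-Pearson) interval of 109 to 24024 that covers counting error only. Its fitted log2 difference depended on the constant added before the logarithm, 1.94 with a pseudocount of 1 and 8.12 with voom, and is no bound. In soleus, CA3B stood at 0.0137, 0.00907 and 0.0096 of CA3A. Since CA3A and CA3B are related copies, how counting divided fragments among the pair is uncertain.

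CA4, anchored outside the cell on capillary endothelium and the fibre membrane, rose more modestly. It had 7.33, 9.71 and 13.2 FPKM in soleus and 2.42, 3.58 and 3.204 FPKM in pectoralis major, without overlap. The log2 difference was 1.42 ± 0.21 (SE, limma adjusted p = 0.000744). Within a library CA4 was 0.0369 ± 0.00656 of CA3A in soleus and 0.261 ± 0.127 in pectoralis major (SD, n = 3). By geometric means this ratio was 6.39-fold higher in pectoralis major, though both genes were higher in soleus. The two-sided exact permutation p was 0.1, the smallest that 3 against 3 allows, and 0.15 adjusted over 3 ratios. With same-numbered libraries paired, the exact p was 0.25, the smallest that 3 pairs allow.

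The other carbonic anhydrases stood far below CA3A in soleus. By its means, CA9 exceeded CA4 (10.1 FPKM in soleus and 3.07 FPKM in pectoralis major) in both muscles. Of the 5 tested, 3 did not pass. By limma or voom 2 rose and 0 fell (0 fell at an unadjusted p below 0.05), with a median of 0.27. The share that rose, 40.0%, was that of all tested genes, of which 17.4% fell and whose median was 0.26. CA5A, the mitochondrial form, had 6.65, 7.16 and 6.55 FPKM in soleus and 1.56, 2.47 and 2.85 FPKM in pectoralis major, a log2 difference of 1.26 ± 0.17 (SE, limma adjusted p = 0.000453). CA8, a relative without catalytic activity, rose as deposited (0.43), but median-ratio scaling ended the call (adjusted p = 0.148), as did leaving out pectoralis major library 1 (0.0594) or 2 (0.0514). CA8 reached the filter through its soleus libraries, since in pectoralis major only library 3 (1.23 FPKM) had at least 1 FPKM. CA9, a membrane form and HIF target, was the most abundant of these at 14.9 ± 3.12 FPKM in soleus and 13.02 ± 3.79 FPKM in pectoralis major, and did not pass. In RefSeq order, CA13, CA3A, CA3B and CA2 are direct neighbours among protein-coding genes. The outer pair did not pass: CA13 had 2.04 ± 0.727 and 1.54 ± 0.704 FPKM and CA2, the high-activity cytosolic form, 6.75 ± 1.10 and 7.51 ± 1.92 FPKM.

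**Figure D4:**
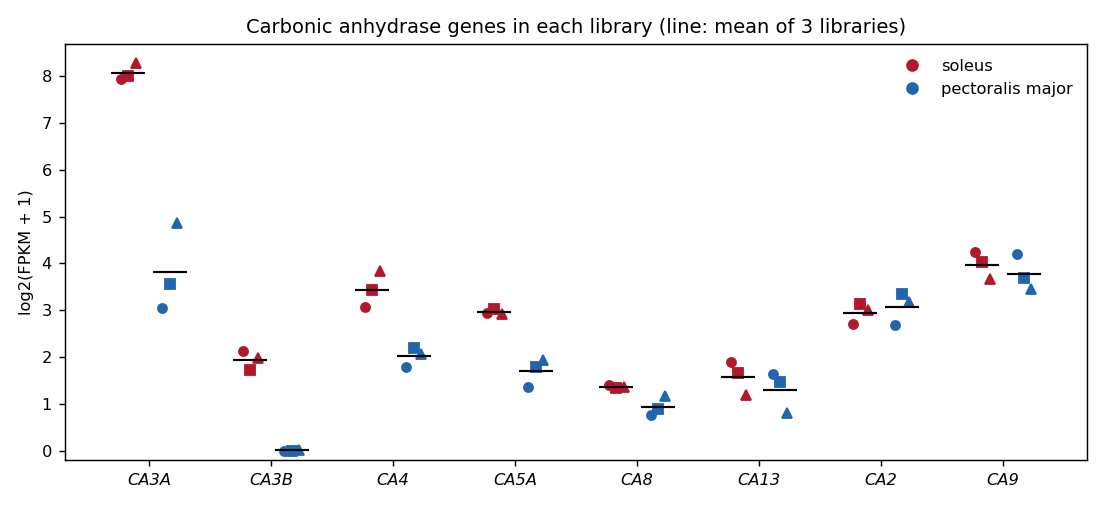
Levels of 8 carbonic anhydrase genes as log2(FPKM + 1) in each library, with the mean of 3 libraries per muscle (line). CA3A, CA3B, CA4, CA5A and, by a narrow gap, CA8 separate the muscles, while CA13, CA2 and CA9 overlap.

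Of 7 tested transporters of bicarbonate or protons, 1 rose and 1 fell (14.3% each), beside 40.0% and 17.4% of all tested genes. SLC4A7, a sodium bicarbonate cotransporter, was higher in soleus, at 1.64 ± 0.263 against 0.323 ± 0.0713 FPKM (log2 difference 0.99); it entered the test through its soleus libraries alone, so its call carries no weight. SLC4A4, another of these cotransporters, was lower, at 3.14 ± 0.341 against 6.12 ± 0.680 FPKM (-0.78).

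The order of mean levels per length differed between muscles. In soleus it was MB, CA3A, EPAS1, EGLN1, CA4, CA3B, HIF1A and EGLN3, where CA3B and HIF1A overlapped and the other neighbours did not. In pectoralis major it was MB, EPAS1, EGLN1, CA3A, EGLN3, CA4, HIF1A and CA3B. There the ranges of MB and EPAS1, of EGLN1 and CA3A, and of CA3A and EGLN3 overlapped. CA3A stood above EPAS1 and EGLN1 in soleus and below their means in pectoralis major.

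**Figure D5:**
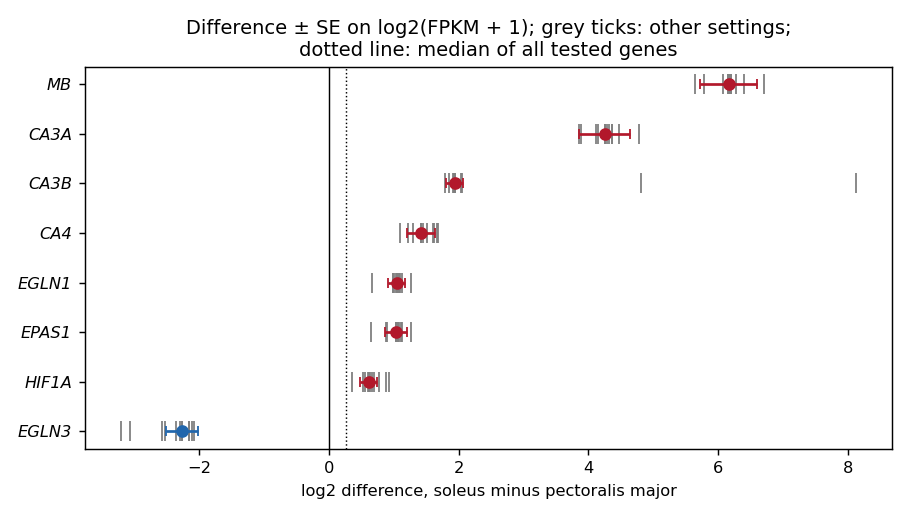
Log2 difference on the log2(FPKM + 1) scale, soleus minus pectoralis major, with its SE; grey ticks are the values under the other settings and libraries left out, and the dotted line is the median of all tested genes. MB (6.17) and CA3A (4.25) lie far to the right and EGLN3 (-2.27) to the left under every setting in which each was tested, while CA3B reaches 8.12 with voom.

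EPAS1 and CA4 are also expressed by endothelial cells, whose markers moved with them. All 15 of 15 endothelial markers tested were higher in soleus (8 under median-ratio scaling), none was at 0, and their summed level was 321 to 389 FPKM in soleus and 182 to 193 FPKM in pectoralis major. Per unit of that sum, EPAS1 was 0.304, 0.308 and 0.355 in soleus and 0.251, 0.309 and 0.321 in pectoralis major, so the muscles overlapped. CA4 per unit of the sum was 0.0210, 0.0302 and 0.0340 in soleus and 0.0133, 0.0189 and 0.0166 in pectoralis major, without overlap. The part of endothelial cells in either difference was not tested. All 6 smooth muscle and pericyte markers (summed level 271 to 409 FPKM against 143 to 216) and all 7 leukocyte markers (993 to 1100 FPKM against 512 to 653) were likewise called higher, with none at 0. Under median-ratio scaling 3 of the 6 and 6 of the 7 were. The muscles overlapped for TAGLN, a smooth muscle marker. TAGLN lost its call without soleus library 1 or 3 or pectoralis major library 2 (limma adjusted p = 0.0990 to 0.146). Of all tested genes, 40.0% were called higher as deposited, and 2026 of 9616 under median-ratio scaling.

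All 5 adipocyte markers were called higher in soleus, PPARG after reaching the filter through soleus alone, none was at 0, and their sum was 269 to 320 FPKM against 65.1 to 78.2. CA3 is abundant in adipocytes of rodents. CA3A per unit of the adipocyte sum was 0.914, 0.797 and 1.03 in soleus and 0.0920, 0.143 and 0.432 in pectoralis major, again without overlap. The part of adipocytes in its difference was not tested.

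Genes most like each member over the 6 libraries were found by the root-mean-square difference of log2(FPKM + 1) after subtraction of each gene's mean, among 3190 genes with a mean of at least 10 FPKM. For MB they were SMPX (0.55) and FHL1 (0.58), for EPAS1 LPCAT3 (0.07) and CD151 (0.08), for HIF1A RAD21 (0.04) and CTSA (0.06), and for EGLN1 LACTB2 (0.06). For EGLN3 they were SLC7A5 (0.15) and RPS27L (0.21), for CA3A CAMK1D (0.54) and ACTC1 (0.55), and for CA4 FABP5 (0.15) and VEGFRKDRL (0.16). FHL1, a LIM domain protein, reached 905 ± 61.6 FPKM in soleus against 11.8 ± 1.44 FPKM, a narrower spread in pectoralis major than that of MB (74.1 ± 52.7 FPKM).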

How the data were processed

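The submitters' processing notes name the build GRCg6a and, as tools, Cufflinks, HTSeq, HISAT2 and R 3.2.0, without their roles. Use of strand is not stated there. The authors made the FPKM values and deposited them in a single table that pairs symbols with gene numbers, per the file headers. All 18239 gene numbers matched RefSeq (GRCg7b), used only for names and gene order; 10 symbols that read as dates were restored. Whole fragments, recovered from the steps of the values, reproduced 100.0% of 94897 values above 0 within a relative tolerance of 1e-06, and gave totals and gene lengths; for a 1 kilobase gene a single fragment stands for 0.0256 to 0.0275 FPKM.

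Genes reaching 1 FPKM in 3 or more of the 6 libraries were tested with limma 3.58.1 in R 4.3.3 (variance trend, two-sided) on log2(FPKM + 1), which understates the change of low genes. P-values were adjusted by Benjamini-Hochberg over all 9616 tested genes, with a threshold of 0.05. Means carry the SD over the 3 libraries of a muscle. Python 3.11.15 (numpy 2.4.6, pandas 2.3.3, scipy 1.17.1, matplotlib 3.10.9) did the rest. Same-numbered libraries deviated together (r of deviations from the muscle means 0.37 to 0.45 over genes, against -0.30 to -0.13 for other numbers), so the replicate block is given where it changes a call. The deviations of a gene sum to 0 within a muscle. The negative values therefore follow from the positive ones and are no separate evidence of pairing. On simulated data of 9616 genes, few of them given a change, the share limma called was 100% at a 4-fold change, 74.6% at 2-fold, 8.96% at 1.5-fold and 0.0531% with no change. The Benjamini-Hochberg cutoff depends on how many genes differ, and 57.3% of tested genes were called between the muscles. These shares therefore do not give the sensitivity between the muscles, where ARNT was called at a log2 difference of 0.39.

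The members, gene lists and rule for named genes were chosen with earlier results of these data known. The rule names all members, per list the 3 called genes of largest difference and the most abundant gene, the 2 genes most like each member, and the genes behind any count up to 5; some items the rule names are not reported here. Listed symbols not found as a symbol or synonym were left out (3 HIF partners, 4 carbonic anhydrases and 2 genes of heme and iron among them). Alternatives were another pseudocount, filters, scalings, the replicate block, voom and leaving out each library.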

Additional observations from a re-analysis of the deposited data

How the results depend on the processing

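The log2 difference of each of the 8 member genes kept its direction and its call in every setting in which it was tested: 13 settings for MB (5.65 to 6.71), CA3A (3.86 to 4.77), CA4 (1.10 to 1.69), EGLN1 (0.67 to 1.27) and EPAS1 (0.65 to 1.26), and 12 for HIF1A (0.36 to 0.92), EGLN3 (-3.20 to -2.08) and CA3B (1.78 to 8.12), which a mean FPKM of at least 5 left out. That filter therefore left 0 members called lower, and gave 1639 genes higher and 1321 lower among 5099 tested. Apart from it and the setting without a filter, every setting kept the genes of the main filter. CA3B reached the main filter through its soleus libraries alone and EGLN3 through its pectoralis major libraries. The unchanged calls of CA3B and EGLN3 therefore have the limit given for the main fit. Over all genes, 3844 were higher and 1670 lower as deposited; median-ratio scaling gave 2026 and 2837, and leaving mitochondrially encoded genes out of the totals gave 4965 and 1112. Of the 74 tested genes of the related lists together, 31 were higher and 11 lower as deposited, and 18 and 19 under median-ratio scaling. The shares of all tested genes as deposited were 40.0% and 17.4%. With the replicate block, 4207 and 1873 of all genes were higher and lower. In the report's lists the block changed the calls given there and that of PFKFB3 (adjusted p = 0.00804, higher), and no other. PFKFB3 reached the filter through its soleus libraries, since in pectoralis major only library 2 (1.73 FPKM) had at least 1 FPKM. With FPKM + 1 in place of FPKM, the log2 ratio difference was 0.41 for EPAS1/HIF1A and -3.31 for EGLN3/EGLN1. The exact permutation p was then 0.1 for each, the smallest that 3 against 3 allows. For EPAS1/HIF1A it was 0.6 with plain FPKM. Leaving out each library gave ratio differences of -0.0025 to 0.25 for EPAS1/HIF1A, -4.70 to -3.98 for EGLN3/EGLN1 and -3.19 to -2.41 for CA4/CA3A. TCEB1 lost its call without each of soleus libraries 1 to 3 and pectoralis major libraries 1 and 3 (adjusted p = 0.0657 to 0.131). The mean filter and the left-out libraries test fewer genes or samples, and adding 1 to FPKM understates the change of low genes. The cause of the other changes was not tested. CA3B in pectoralis major, at 1 fragment in all, is the value that depth limits.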

Other observations

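Outside the lists, the table's own annotation gives 3 of the 8 member genes, MB, EPAS1 and HIF1A, the term response to hypoxia. Of 24 tested genes with that term, these 3 included, 11 were higher and 3 lower in soleus, shares near the 40.0% and 17.4% of all tested genes, with a median log2 difference of 0.43 beside 0.26. This term was looked up after the values had been seen.

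The pectoralis major libraries parted more in MB and CA3A than in the other detected members. The SD was 71.2% of the mean for MB and 72.7% for CA3A, against 10.9% to 35.8% for EPAS1, HIF1A, EGLN1, EGLN3 and CA4. In soleus the SD of these genes was 7.88% to 29.3% of the mean. MB was highest in pectoralis major library 2 and CA3A in library 3, so no single library was high in both.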
